A study of Homo sapiens with 28 samples.

Results

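Resting cells of the human monocytic line U937 were compared between clones that had lost any one of the 5 NF-kB subunits and control clones, to ask which genes lay on the same side of the controls whichever subunit was targeted. All untreated libraries of the series were taken, 14 of 28: 11 knockout clones pooled (2 p50, 2 p52, 3 p65, 2 cREL and 2 RELB) against 3 CTR clones. CTR clones had received non-specific guide RNAs, so every clone carries the history of CRISPR targeting and cloning, and each library is 1 clone sequenced once from polyadenylated RNA. All libraries carry the label 6 h; the other 14 libraries are the same clones with LPS at 500 ng/ml, used here only as a second reading. A gene was called shared when its pooled difference passed an adjusted p under 0.05 and its folds in all 5 genotypes had one sign, with the labelled sample batch as a term in the model.

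NF-kB is a family of dimeric transcription factors built from p50 (gene NFKB1), p52 (NFKB2), p65 (RELA), cREL (REL) and RELB. In resting cells most dimers are held in the cytoplasm by inhibitor proteins such as IkB-alpha (NFKBIA), and a stimulus such as lipopolysaccharide (LPS), sensed through TLR4, frees them to enter the nucleus. In monocytes their known targets include chemokines, cytokines, survival genes and their own inhibitors.

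The labels give 3 sample batches, and they do not cross the groups evenly. Batch B held CTR-2 with p50-1, p52-1, cREL-1 and RELB-2. Batch C held CTR-1 and CTR-3 with p65-2 and p65-3. Batch A held p50-2, p52-2, p65-1, cREL-2 and RELB-1 and no control. In the pooled fit these 5 clones bear on the spread but not on the batch-adjusted difference from CTR. In the fit with a term per genotype they link the batches, so they and the controls of batches B and C enter the genotype folds. Inside its own batch, every knockout genotype other than p65 met 1 control clone, and p65 met 2. The 5 genotype folds share the same 3 CTR libraries and are not independent of each other, and p-values measure the spread between clones.

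Libraries held 12643438 to 22122428 estimated counts. Log2 CPM correlated at 0.944 to 0.963 between clones of the same genotype (10 pairs) and at 0.93 to 0.965 between knockout and CTR clones (33 pairs), so controls did not stand apart as a group. The myeloid markers CD33, at 98.0 to 164 TPM over the untreated libraries, and the granule protease ELANE, at 953 to 3632 TPM, were present, whereas the granule enzyme MPO did not exceed 0.282 TPM. CD3D (T cells), MS4A1 (B cells), PF4 (platelets) and COL3A1 (fibroblasts) were at 0 in all 14, while the cytotoxic cell marker NKG7 lay at 99.7 to 519 TPM. The data are bulk RNA, in which fewer cells expressing a gene and less RNA per cell cannot be told apart.

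The targeted genes were read first. RELA, encoding p65, was at 46.4, 49.5 and 48.0 CPM in CTR-1, CTR-2 and CTR-3, at 3.76 in p65-2 and 8.44 in p65-3, and at 53.6 in p65-1. The library labelled p65-1 thus held RELA messenger RNA at the level of the 8 knockout clones of the other subunits, which ranged from 44.8 to 54.3 CPM. CRISPR lesions need not lower a transcript, so messenger RNA alone does not test the label. NFKB1 was at 6.24 and 5.203 CPM in p50-1 and p50-2 and at 11.95 to 22.2 CPM in the controls. REL was at 26.3 CPM in cREL-1 and 10.5 in cREL-2, against 31.6 to 34.3 in the controls. In the other knockouts it ran from 18.5 CPM in p52-2 to 37.6 in p65-3, so cREL-1 lay inside their range. NFKB2 in p52-1 and p52-2, at 1.37 and 2.10 CPM, overlapped the controls at 1.51 to 5.63, and RELB in the RELB clones, at 3.45 and 4.66, lay just below controls at 4.93 to 15.96. Neither level was particular to the targeted clones. In the other knockouts NFKB2 ran from 0.643 CPM in p50-2 to 2.93 in cREL-1, and RELB from 0.76 in p50-2 to 9.61 in p65-3.

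The genotype folds of RELA departed from its levels. In the model with a term per genotype, RELA had log2 folds of −1.43, −1.24, −1.28 and −1.46 in p50, p52, cREL and RELB, although its CPM in those clones overlapped the controls. Of the p65 clones, p65-1 is the one in batch A, and p65-2 and p65-3 are in batch C. In this fit the p65 clones link batch A to batch C. The RELA gap between p65-1 and p65-2 and p65-3 therefore enters the folds of the other genotypes. Within batch B, RELA differed between the 4 knockout clones and CTR-2 by 0.03 on the log2 scale, and within batch C by −3.04. A shared sign was therefore read with care. Differences inside batches B and C, which use no genotype or batch term, are given beside it for some genes and lists, not for all.

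No gene passed in the pooled comparison. Of 16407 genes tested with edgeR, 0 (0%) reached an adjusted p under 0.05, and so 0 were shared. At an unadjusted p under 0.05 there were 1190 genes (7.25%), 638 higher (3.89%) and 552 lower (3.36%). DESeq2, limma voom and a fit over all 28 libraries called 32, 2 and 5 genes. The pooled fold and the 5 genotype folds had one sign in 5995 genes (36.5%), 2945 higher (17.9%) and 3050 lower (18.6%), a share read only as background, since the folds have their controls in common. In 1158 genes (7.06%) the folds agreed and the unadjusted p was under 0.05, 611 higher (3.72%) and 547 lower (3.33%). In 147 genes (0.896%) the 11 knockout clones did not overlap the 3 controls, 83 above (0.506%) and 64 below (0.39%). In 1352 genes (8.24%) the 5 folds had one sign and clones and controls were separated within both batch B and batch C, 772 higher (4.71%) and 580 lower (3.54%). A test for differences among the 5 knockout genotypes called 0 genes (0%) in edgeR, with 768 (4.68%) at an unadjusted p under 0.05. It had 6 residual degrees of freedom and 2 or 3 clones per genotype, so it does not show that the genotypes are alike. RELA, low in p65-2 and p65-3, had an unadjusted p of 0.693 in this edgeR F-test.

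The genes described next are the 8 lower and 8 higher genes of lowest p whose 5 genotype folds agreed in sign and whose mean was at least 5 CPM. Pseudogenes and systematic symbols, such as LINC and antisense names, were left out before ranking. They were ranked on this comparison, so their sizes are a description and none is a call. All 16 were separated from their controls within both batches, where 8.24% of all genes had 5 folds of one sign and this separation. The ranking used these same differences, and batch B holds 1 control, so the separation follows from the choice and adds no support.

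CCL2, the chemokine that draws monocytes into tissue, came closest to the threshold. Its level was 79.9, 135 and 64.7 CPM in CTR-1, CTR-2 and CTR-3, and in the knockouts it ran from 6.18 through a median of 13.9 to 62.5 CPM. All 11 knockout clones lay below all 3 controls, RELB-1 only just, at 62.5 against 64.7 in CTR-3; the next highest, p50-2, was at 32.0. The batch-adjusted log2 fold was −3.11 ± 0.43 (SE), with an adjusted p of 0.0589 in edgeR. The difference was nearly the same within batch B, −3.19, and within batch C, −3.09. By genotype the log2 fold was −2.54 in p50, −3.09 in p52, −3.34 in p65, −3.41 in cREL and −2.08 in RELB. Leaving out each of the 14 clones in turn kept the fold between −3.35 and −2.97, and CCL2 passed in 3 of these fits, with adjusted p from 0.00052 to 0.593 in edgeR. The 3 were those without p65-1 (0.0182), cREL-2 (0.0243) or RELB-1 (0.00052), all of batch A, which in this pooled edgeR fit bears on the spread only. The highest was without CTR-2. Over all 28 alternatives, these 14 among them, CCL2 passed in 10 and did not pass in 18. It passed with DESeq2 (adjusted p = 1.9e-08), limma voom (0.0093) and upper quartile scaling in edgeR (0.032), so the outcome depended on the method.

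TM4SF1, a tetraspanin-like membrane protein, differed strongly by batch. CTR-2 held 264 CPM and the 4 knockout clones of its batch 13.1, 28.6, 15.4 and 34.3 CPM. CTR-1 and CTR-3 held 3.07 and 1.97 CPM and p65-2 and p65-3 0.627 and 0.767. Knockouts lay below their own batch's controls in both, while across batches the groups overlapped. The log2 fold was −2.87 ± 0.43 (SE; adjusted p = 0.0731, edgeR). CTR-2 carries much of that size: without it the log2 fold was −1.86. TM4SF1 passed in 2 of the 14 fits that left out 1 clone, without p65-1 (adjusted p = 0.035) and without RELB-1 (0.0266), and the adjusted p reached 0.634 without CTR-2, in edgeR.

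PTPN14, a tyrosine phosphatase linked to the Hippo pathway, had the same size of difference in both batches. It was at 16.6, 24.5 and 18.2 CPM in the controls and at 5.74 to 13.0 in the knockouts, with a median of 10.4. No knockout reached any control. Its log2 fold was −1.33 ± 0.22 (SE; adjusted p = 0.15, edgeR), with −1.34 in each of batches B and C.

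ATP2B1, a plasma membrane calcium pump, was also separated from the controls. It measured 74.0, 86.9 and 76.6 CPM in CTR and 31.1 to 63.6 CPM in the knockouts, RELB-2 highest, with a log2 fold of −1.05. CD55, which limits complement on the cell surface, and EMD, the inner nuclear membrane protein emerin, lay below all controls with log2 folds of −0.66 and −0.80. Within batches B and C the differences were −0.42 and −0.85 for CD55 and −0.41 and −1.09 for EMD. SDC4, a cell surface proteoglycan, and DCTN6, a dynactin subunit, had log2 folds of −0.80 and −1.15 and overlapped the controls. For DCTN6, p65-3 was lowest at 10.6 CPM and RELB-1, at 48.7 CPM, was the knockout inside the control range of 44.6 to 69.0; the others lay below it.

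**Figure D1:**
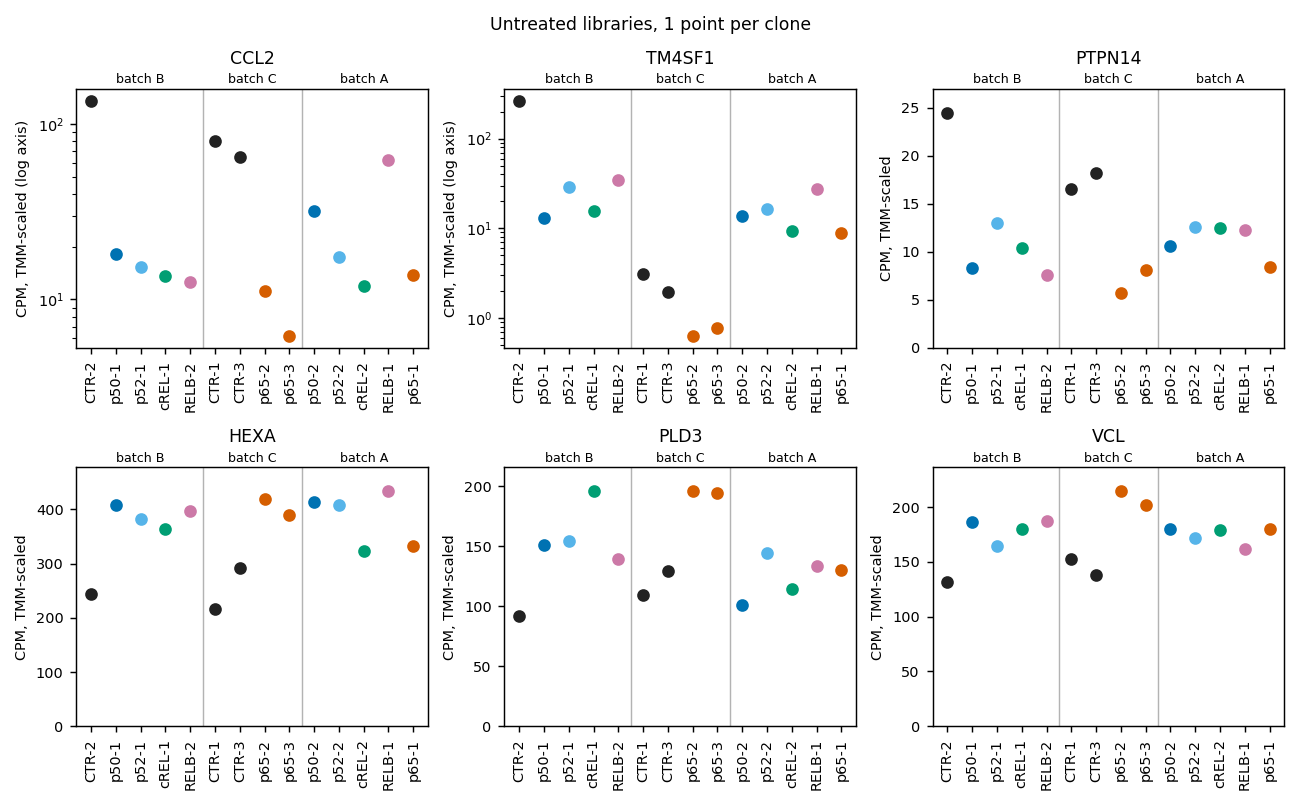
Level of 6 leading genes in the 14 untreated libraries, in TMM-scaled CPM (log axis for CCL2 and TM4SF1), 1 point per clone, ordered by sample batch; black points are CTR. CCL2 and PTPN14 lie below every control in all 11 knockouts, HEXA and VCL above every control, and TM4SF1 at 264 CPM in CTR-2 stands far above all other libraries.

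Among the higher genes, HEXA, the alpha subunit of the lysosomal enzyme beta-hexosaminidase, was above every control in every knockout. It was at 217, 244 and 291 CPM in CTR-1, CTR-2 and CTR-3 and at 322 to 434 CPM in the knockouts, with a median of 396. The log2 fold was 0.67 ± 0.14 (SE; adjusted p = 0.422, edgeR), with 0.67 in batch B and 0.69 in batch C. VCL, the focal adhesion protein vinculin, had the narrowest range over genotypes of these 16 genes: its log2 folds were 0.51, 0.39, 0.52, 0.48 and 0.44 in p50, p52, p65, cREL and RELB. Its level was 132 to 152 CPM in the controls and 162 to 215 in the knockouts, without overlap.

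PLD3, a lysosomal exonuclease, was at 92.2 to 129 CPM in the controls and 101 to 196 in the knockouts, overlapping them through batch A. Its log2 fold was 0.75, with 0.79 in batch B and 0.72 in batch C. ABCA7, a lipid transporter, had a log2 fold of 1.40 and ALDH4A1, a mitochondrial enzyme of proline breakdown, one of 1.06. ALDH4A1 was the only one of the 16 with an unadjusted p under 0.05 among the knockout genotypes (adjusted p = 0.972 in the edgeR F-test); RELB, at 0.36, had the lowest fold and p65, at 1.22, the highest. CXorf21, which binds the lysosomal transporter SLC15A4 and is also called TASL, SLC17A9, a vesicular nucleotide transporter, and PGGHG, a glycosidase, had log2 folds of 1.17, 0.69 and 1.55. PGGHG was the least abundant, at 2.96 to 5.51 CPM in the controls, and differed by 1.09 within batch B and 1.89 within batch C.

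**Figure D2:**
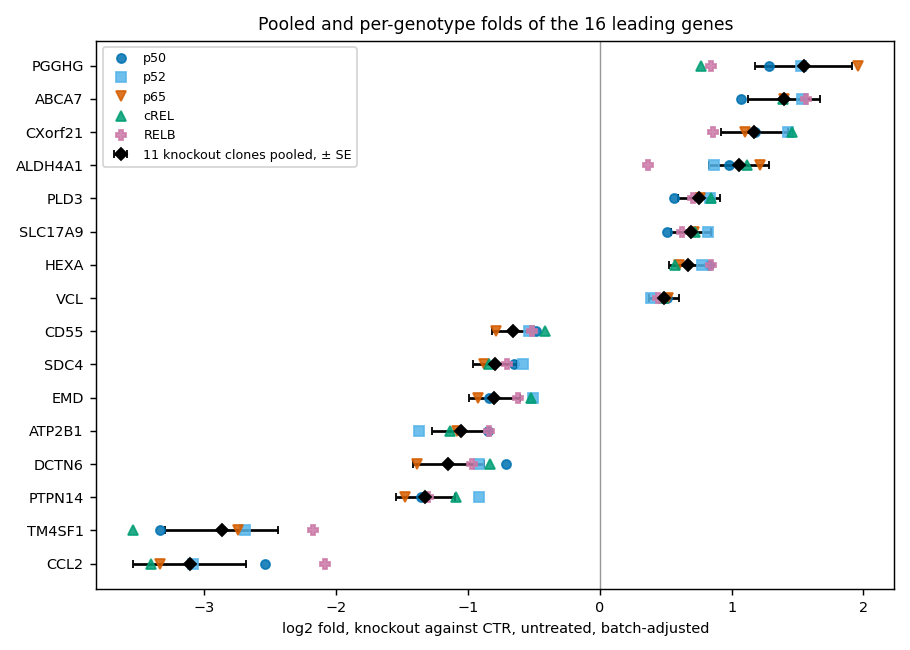
Batch-adjusted log2 folds of the 16 leading genes in untreated libraries, for each knockout genotype (coloured) and for the 11 clones pooled (black diamond, bar is ± SE). The one sign across genotypes is part of how these genes were chosen; RELB has the smallest CCL2 difference, at −2.08.

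The same clones with LPS gave a second reading that the ranking did not use, from libraries that share clones and batches with the first. All 16 genes kept the sign of their untreated difference with LPS. So did 69.3% of all 15857 genes tested in both, and 91.6% of the 1125 with an unadjusted p under 0.05 and 5 folds of one sign. With LPS, 15 of 16 had an unadjusted p under 0.05 there, against 1503 of 16426 genes (9.15%), 774 lower (4.71%) and 729 higher (4.44%). EMD was the exception, with a log2 fold of −0.27. None passed, the adjusted p running from 0.231 to 0.672 in edgeR, and 0 of all genes (0%) passed.

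CCL2 with LPS was at 818, 366 and 997 CPM in CTR-1, CTR-2 and CTR-3. The 9 clones of p50, p52, p65 and cREL were at 18.9 to 45.9 CPM with LPS, below the untreated controls, and RELB-1 and RELB-2 at 185 and 146. Every knockout lay below every control, with a log2 fold of −4.12 ± 0.92 (SE; adjusted p = 0.253, edgeR). In the CTR clones CCL2 was higher with LPS than without by 2.91 ± 0.47 on the log2 scale (SE; adjusted p = 0.00339, edgeR). ATP2B1, SDC4 and TM4SF1 differed in CTR by 0.72, 0.75 and 0.85 between LPS and untreated, higher with LPS in all 3 clones, and PTPN14 by −0.20. None of these 4 passed, in a fit with no term for clone, although each clone gave both libraries.

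**Figure D3:**
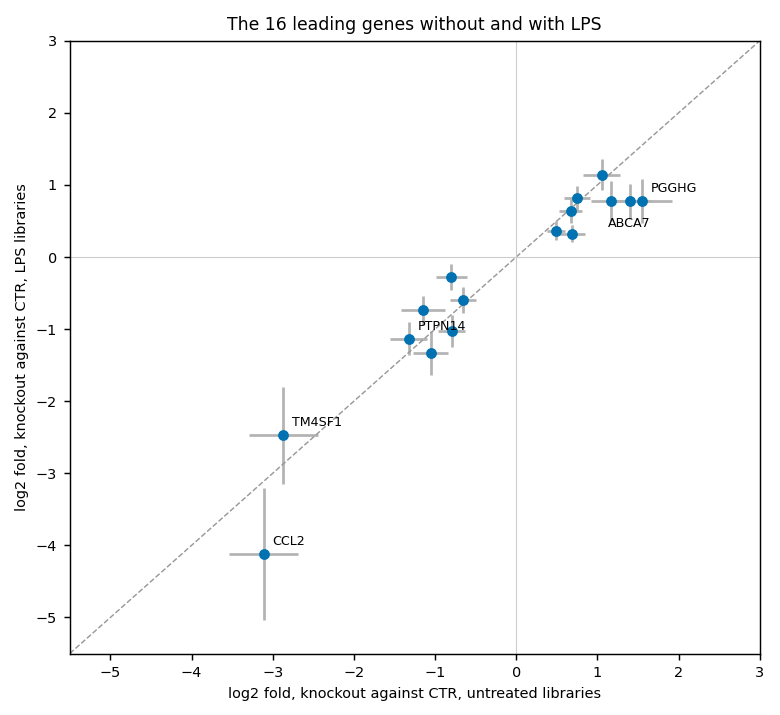
Pooled log2 fold of knockout against CTR for the 16 leading genes, untreated on the horizontal axis and with LPS on the vertical axis; bars are ± SE and the dashed line marks equal folds. All 16 points lie in the quadrants of equal sign, with CCL2 at −3.11 and −4.12.

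The start regions of these genes were searched because kB sites, the sequences NF-kB dimers bind, are known at many of the family's targets. The 250 bases upstream of each start were taken from RefSeq (build GRCh38.p14) and searched on both strands for the 10-base kB consensus. It was found in 5.21% of 35116 such windows. Of the 16 genes, 10 had an entry and 3 held a match: SDC4 (97 bases upstream), TM4SF1 (126 bases) and VCL (18 bases). The RefSeq starts used for TM4SF1 and VCL lie inside the longer annotated genes. CCL2 had no entry. Of 6 other genes searched, NFKBIA and OAS3 held a match, and CXCL8, CCL3, EGR1 and BCL2A1 held none. The search allowed no departure from the consensus, so a window without a match can still hold a kB site. The windows of SDC4, a lower gene, and of NFKBIA, the classical target described below, are printed with the kB match in capitals, 5′ to 3′; SDC4 is at chr20:45348425-45348674 and NFKBIA at chr14:35404750-35404999, both on the minus strand. A match is a stretch of letters, and binding was not measured.
SDC4: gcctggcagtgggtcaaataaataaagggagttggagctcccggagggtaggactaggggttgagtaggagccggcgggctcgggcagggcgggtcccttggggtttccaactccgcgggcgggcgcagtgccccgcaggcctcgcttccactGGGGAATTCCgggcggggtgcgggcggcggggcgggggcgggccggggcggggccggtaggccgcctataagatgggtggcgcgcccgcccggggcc
NFKBIA: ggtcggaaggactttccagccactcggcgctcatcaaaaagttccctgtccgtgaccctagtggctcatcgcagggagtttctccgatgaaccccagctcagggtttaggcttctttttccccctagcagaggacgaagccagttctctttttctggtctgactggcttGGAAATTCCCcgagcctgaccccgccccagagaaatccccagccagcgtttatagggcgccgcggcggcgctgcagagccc

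The NF-kB pathway's own genes were read as lists. No member of any of the 29 lists passed the adjusted test in edgeR, so each list is given by its counts beside those of all genes, whose median log2 fold was 0.01, with 51.4% above 0 and 48.6% below. All 5 subunit genes had a pooled fold below 0, 4 of them in all 5 genotypes, with a median of −0.68. The pool holds each gene's own targeted clones, so these folds are not independent of the targeting. NFKB1 had a log2 fold of −1.71 in p50 and of −0.16 to −0.54 in the other genotypes. The pooled fold of REL was only −0.06. RELA is among the 4, although it differed by 0.03 in batch B, and without CTR-2 the RELB fold was 0.17 and the median −0.26; without p65-3 the median was −1.29. Of 21 inhibitor and feedback genes, 12 were lower and 9 higher, with a median of −0.05, and 4 had 5 lower folds, near the 18.6% of all genes. NFKBIA, encoding IkB-alpha, was at 51.7 to 72.8 CPM in the controls and 25.8 to 65.9 in the knockouts, overlapping, with a log2 fold of −0.52 (−0.49 in batch B, −0.58 in batch C). TNFAIP3, the ubiquitin-editing inhibitor A20, was at 16.9 to 23.8 CPM in the controls and 5.77 to 16.9 in the knockouts, which just overlapped, with a log2 fold of −0.68 that was −0.35 without CTR-2. TNFAIP3 and the further genes named below outside the 16 were chosen after their values were seen. Exceptions are the most abundant members of their lists: RELA, REL, NFKBIA, TRAF2, CCL5, BCL2A1, CD44, ITGB2 and HSPA8. So are BTK, PTPRC, CCND3, RRM2, CALR, HSP90B1, NKG7 and FAP. TRAF2, an adaptor of the TNF receptors, had a log2 fold of 0.28. The Noncanonical input list had a median of 0.15, with 3 of 11 genes lower.

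Most chemokines had a pooled fold below 0. This held for 13 of 14 tested, against 48.6% of all genes. Of these, 4 had an unadjusted p under 0.05 in edgeR, against 3.36% of all genes lower at that threshold. In all 5 genotypes 6 were lower, against 18.6% of all genes. CCL2 was the one below every control, where 0.39% of all genes lay. The median was −1.01, with −0.52 in batch B and −1.05 in batch C. It was −0.63 without p65-3 and −0.29 without the batch term. Without all p65 clones, when only batch B holds both groups, it was −0.33. By genotype the median ran from −1.51 in p65 to −0.19 in p52. The neutrophil chemokine CXCL8 had a log2 fold of −1.27 (−1.23 and −1.43 within batches B and C), CCL3 one of −1.51 and CCL20 one of −1.52. CCL3 has near-identical copies among which reads can be split, so its value is uncertain. CCL5, the most abundant at a mean of 103 TPM, did not share the sign: its log2 fold was −0.52 pooled, 0.10 in batch B and −0.996 in batch C. The summed chemokine level was 755 TPM in CTR-2, 420 in CTR-1 and 381 in CTR-3. RELB-1 and RELB-2, at 431 and 461 TPM, overlapped the controls, and the other 9 knockouts lay between 114 and 327 TPM, below all of them.

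Of 20 survival genes 13 were lower, with a median of −0.15. BCL2A1, a BCL2-family survival factor, was at 69.7, 125 and 194 CPM in CTR-1, CTR-2 and CTR-3 and at 15.97 to 165 CPM in the knockouts, with a log2 fold of −1.40; without CTR-3 it was −0.81. Adhesion and costimulation genes had 13 of 20 lower and a median of −0.36. CD44, the hyaluronan receptor, had a log2 fold of −0.34 and overlapped the controls. ITGB2, the most abundant member, had one of 0.18, was higher in all 5 genotypes and also overlapped the controls. Cytokines had 11 of 12 lower, none in all 5 genotypes, and a median of −0.44 that was −0.10 in batch B.

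Interferon-stimulated genes had 39 of 47 members below 0 and a median of −0.69, 15 of them lower in all 5 genotypes against 18.6% of all genes. The size of the median depended on 1 control library, CTR-1, and the count of 15 was not taken again without it. The median was 0.08 in batch B and −0.78 in batch C, which holds CTR-1 together with p65-2 and p65-3. The list's summed level was 2642 TPM in CTR-1, against 856 in CTR-2, 1004 in CTR-3 and 772 to 1093 TPM in the 11 knockouts. OAS2, an antiviral RNA-sensing enzyme, was at 156 CPM in CTR-1 and at 1.56 to 10.5 CPM in the other 13 libraries. Without CTR-1 the list's median was 0.06, and the OAS2 log2 fold went from −2.63 to −0.24. ISG15, a ubiquitin-like protein, was at 60.0 CPM in CTR-1 and 1.26 to 8.13 in the others, and its log2 fold went from −2.10 to −0.25. OAS3, at 324 CPM in CTR-1, went from −1.61 to −0.55.

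**Figure D4:**
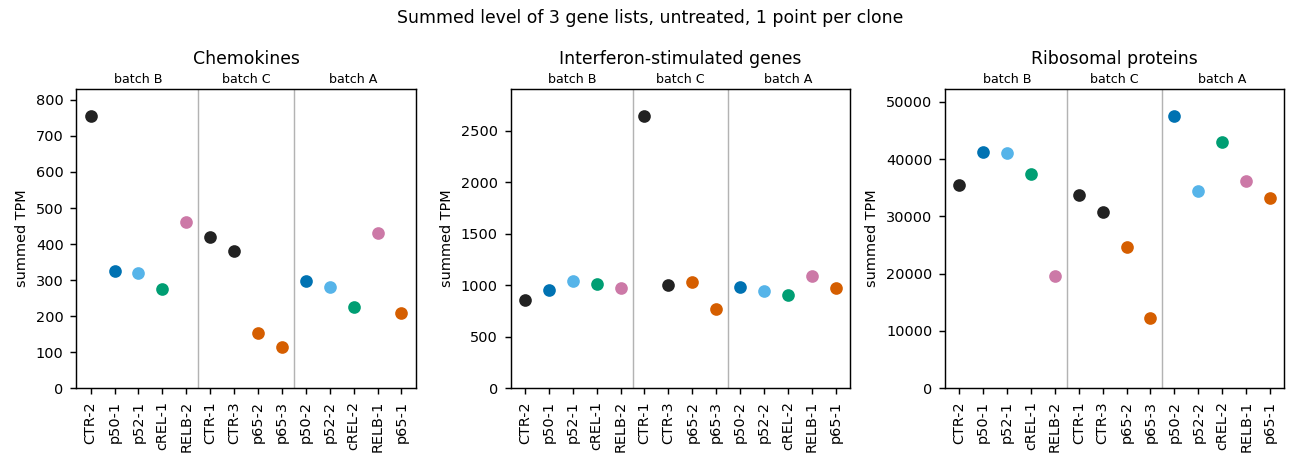
Summed TPM of the chemokine, interferon-stimulated and ribosomal protein lists in each untreated library, 1 point per clone, ordered by sample batch. CTR-1 stands alone for interferon-stimulated genes at 2642 TPM, CTR-2 is highest for chemokines at 755 TPM, and p65-3 and RELB-2 are lowest for ribosomal proteins.

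Genes of the myeloid lineage lay on both sides. Of 28 lineage and monocyte genes, 17 were higher and 11 lower, with 9 higher in all 5 genotypes against 17.9% of all genes. Their median was 0.15, with 0.27 in batch B and −0.11 in batch C, −0.13 without CTR-2 and 0.35 without CTR-1. IRF8, a monocyte transcription factor, had a log2 fold of 0.71, CSF3R, the G-CSF receptor, one of 0.86, and ANPEP, the surface peptidase CD13, one of 1.08, while CSF2RB, the common beta chain of cytokine receptors, had one of −0.72. PLAUR, the urokinase receptor, had a log2 fold of −0.74. Tyrosine kinase signalling had 9 of 18 genes higher in all 5 genotypes, against 17.9% of all genes, with a median of 0.30 (0.38 in batch B, 0.18 in batch C). The median was 0.16 without CTR-2 and 0.02 without the batch term, and in the LPS libraries it was 0.02. FES, a myeloid tyrosine kinase, had a log2 fold of 0.66 and PLCG2, a phospholipase downstream of such kinases, one of 0.80. Both were larger in the p65 clones, where FES had a log2 fold of 0.81 and PLCG2 one of 1.23. BTK and PTPRC, the most abundant members of this list, had pooled log2 folds of 0.03 and −0.03. Promyelocyte granule genes had a median of 0.23, made of 1.02 in batch B and −0.45 in batch C.

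EGR1 and HSPA8 were the members of the immediate early and heat shock list that lay above all controls, 2 of 27, against 0.506% of all genes. EGR1, a transcription factor induced within minutes of many stimuli, was at 1.35, 1.57 and 0.197 CPM in CTR-1, CTR-2 and CTR-3 and at 1.67 to 19.4 CPM in the knockouts, with p65-3 and p65-2 lowest at 1.67 and 2.12. Its log2 fold was 2.12 ± 0.54 (SE; adjusted p = 0.576, edgeR); without CTR-1 it was 3.18 (adjusted p = 0.0298) and without CTR-2 1.27. With LPS the EGR1 fold was −0.42. EGR1 was then at 4.37, 12.9 and 8.01 CPM in CTR-1, CTR-2 and CTR-3, above their untreated levels. The knockouts with LPS ran from 1.57 CPM in p65-3 to 60.7 in RELB-2. For a gene whose control level differs with LPS, the second reading does not repeat the resting comparison. HSPA8, a constitutive chaperone, was at 4295 to 5263 CPM in the controls and 5533 to 8930 CPM in the knockouts, with a log2 fold of 0.42. HSPA1A and HSPA1B, the inducible HSP70 genes, had log2 folds of 0.78 and 0.80, and as near-identical copies they are not independent values. The rest of the list did not share a direction: 17 of 27 were lower and 10 higher.

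Growth and stress lists had medians near 0. Of 32 DNA replication and cell cycle genes, 21 were lower, 12 of them in all 5 genotypes, against 18.6% of all genes, with a median of −0.13 that was −0.31 in batch B and 0.14 in batch C. The most abundant members, the cyclin CCND3 and the ribonucleotide reductase subunit RRM2, had log2 folds of −0.01 and 0.01. AURKB, a mitotic kinase, had a log2 fold of −0.75 and CCNB2, a mitotic cyclin, one of −0.39; without CTR-2 these were −0.48 and −0.12. Unfolded protein and integrated stress genes had 13 of 21 lower, 8 in all 5 genotypes against 18.6% of all genes, and a median of −0.15, with −0.56 in batch B, −0.07 in batch C, −0.07 without CTR-2 and −0.30 without p65-3. DDIT3, the stress transcription factor CHOP, had a log2 fold of −1.14, and HMOX1, haem oxygenase 1, one of −1.12. CALR and HSP90B1, the most abundant members of this list, had log2 folds of 0.23 and 0.05. TLR signalling genes had 9 of 26 lower in all 5 genotypes, against 18.6% of all genes. Their median was −0.01, with −0.04 in batch B and 0.02 in batch C.

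Ribosomal protein genes had 31 of 32 pooled folds below 0 and a median of −0.66, from −0.10 in batch B to −1.37 in batch C. Their summed level was lowest in p65-3, at 12241 TPM, and in RELB-2, at 19675, and ran from 24752 to 47508 TPM in the other 12 libraries, so this was not a difference shared by the knockouts. Without p65-3 the median was −0.25. Mitochondrial messenger RNA had a median of −0.37, with 0.03 in batch B and −0.82 in batch C. MHC class II had a median of 0.03, with genotype medians from −0.83 in p50 to 2.08 in RELB. The lists for MHC class I, oxidative burst, p53 targets, cholesterol synthesis, glycolysis and Polycomb had medians of −0.03, −0.05, 0.17, 0.07, 0.03 and 0.05. That of oxidative burst genes was 0.35 in batch B and −0.40 in batch C.

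**Figure D5:**
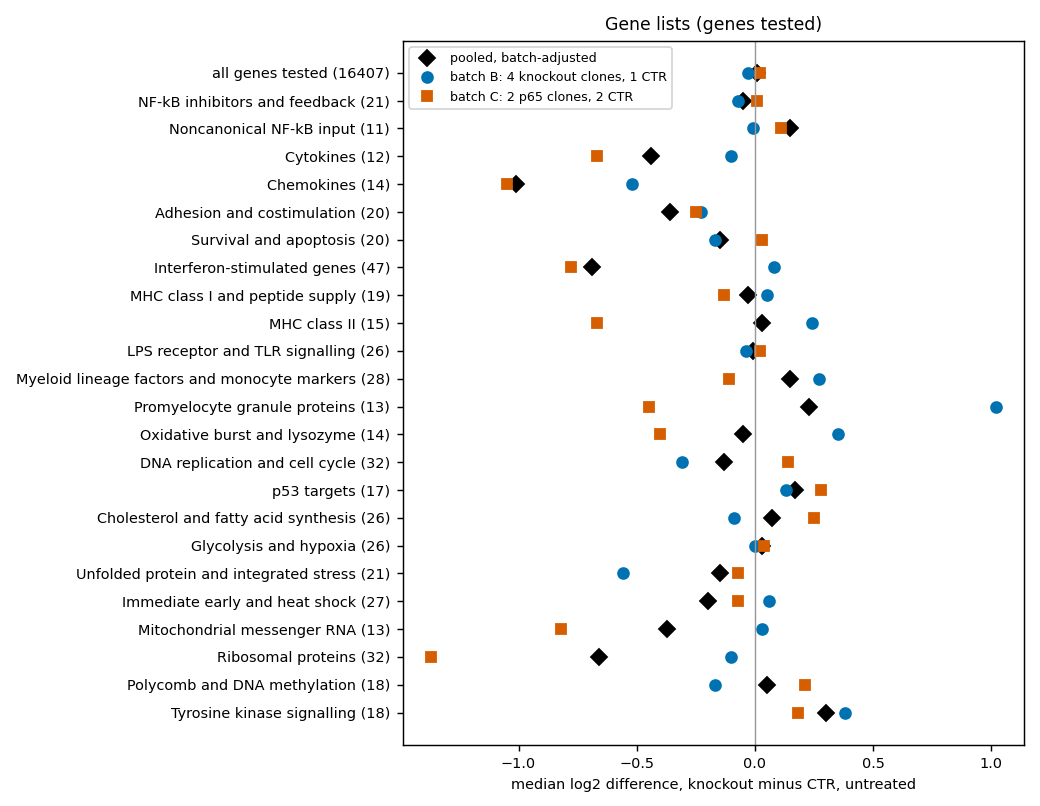
Median log2 difference between knockout and CTR for each list with at least 10 genes tested (number in brackets), pooled with batch in the model (diamond), within batch B (circle) and within batch C (square). Chemokines are below 0 in all 3 readings; interferon-stimulated genes are at 0.08 in batch B and −0.78 in batch C.

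Few markers of other cell types were tested, and the most abundant were NKG7 and FAP, a fibroblast-list surface protease at a mean of 67.0 TPM with a log2 fold of 0.11. T and NK cell markers had 5 of 16 genes tested, with a median of −0.61; their summed level was 282 to 531 TPM in the controls and 108 to 501 in the knockouts, overlapping, and most of it was NKG7. TRAC, the T cell receptor alpha constant gene, was at 3.42 to 4.48 CPM in the controls and 0.677 to 2.50 CPM in the knockouts, below all of them, with a log2 fold of −1.56. CD3D was at 0 in every library, and CD3E and CD3G, other parts of the T cell receptor complex, did not exceed 0.166 and 0.403 TPM. B cell, erythroid and platelet, epithelial and fibroblast lists had 4, 3, 4 and 2 genes tested and medians of 0.07, −1.54, 0.05 and 0.14. The part of these markers in the results above was not tested.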

How the data were processed

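RNA was polyadenylated, reverse transcribed from oligo(dT) primers, amplified and sequenced from paired ends, per the labels' protocols. The authors deposited estimated counts per gene symbol, a TPM table and an effective length table. Salmon 0.11.3, FastQC 0.11.7 and build GRCh38 are named in the submitters' processing notes; the sources used here do not give the annotation release or settings, and counting is not stated to use strand, so overlapping antisense genes cannot be told apart. All 56809 symbols matched GENCODE release 29. Every column mapped to 1 sample; no 2 libraries were identical.

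Estimated counts were rounded, filtered by filterByExpr (minimum count 10, total 15), scaled by TMM and fitted in R 4.3.3 by edgeR 4.0.16: batch plus knockout against CTR on 14 libraries, quasi-likelihood with robust dispersion (10 residual degrees of freedom, coefficient of variation 34.5%). Genotype folds came from a model with batch and genotype (6 degrees of freedom). Adjusted p is Benjamini-Hochberg over all genes. CPM are TMM-scaled; TPM are the authors' values as deposited; within-batch differences are log2 CPM with a prior count of 2. Named genes were the 5 targets, the 8 lower and 8 higher of lowest p with 5 folds of one sign and a mean of at least 5 CPM, and up to 2 most abundant members per list. Pseudogenes and systematic symbols, such as LINC and antisense names, could not enter the 8 lower and 8 higher. Members, lists and rule were chosen with earlier results of these data known. Alternatives were other size factors, DESeq2 1.42.0, limma 3.58.1 voom, no filter, no batch term, single batches, all 28 libraries, an effective length offset, a replicate block and leaving out each clone. The code was tested on simulated data. Some clones share replicate numbers, but the numbers are not said to mark a shared origin. Labels do not say whether clones of 1 genotype share a guide.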

Additional observations from a re-analysis of the deposited data

How the results depend on the processing

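Over 28 alternatives the 16 leading genes never changed sign in the untreated libraries. They were chosen on these same libraries by lowest p and 5 folds of one sign. The kept sign therefore follows largely from the choice and adds no support. Of the 16, CD55 was the one that DESeq2 did not call. The count of genes passing in the pooled untreated comparison, 0, became 32 with DESeq2, 5 over all 28 libraries, 4 in batch B alone, 2 with limma voom or the effective length offset, and 1 with upper quartile scaling or batches B and C only; every count but that of batch B alone is also the count of shared genes. Leaving out each clone gave 0 to 2 passing genes. RELA passed without CTR-2 (log2 fold −2.96). The genes passing over all 28 libraries were ALDH4A1, CCL2, MST1, PTPN14 and TM4SF1. The replicate block, tried although the numbers do not pair the clones (31 same-numbered pairs correlated at −0.17 to 0.285, 7 above 0.1), gave 0. The count of genes whose 5 genotype folds had one sign, 5996 when the pooled fold is not asked to share it, was 14588 without the filter and 4765 to 8249 leaving out each clone. Among the knockout genotypes, 0 became 825 without the filter, 1 without the batch term and 0 to 1 leaving out each clone. With LPS, 0 became 163 in DESeq2, 53 without the batch term and 0 to 5 leaving out each clone.

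These signs reversed, and the cause was not tested. In batch B alone and without all p65 clones, the log2 folds were 0.014 and 0.031 for RELA, 0.10 and 0.11 for CCL5, 0.12 and 0.14 for OAS2, and 0.23 and 0.24 for ISG15. In batch C alone REL was at 0.16 and RELB at 0.17, and REL was at 0.073 with the effective length offset. Leaving out each clone, REL ran from −0.14 to 0.16 and RELB from −1.32 to 0.17. Leaving out each clone turned the sign of the list median for survival, interferon-stimulated, lineage, granule, oxidative burst and cell cycle genes, among others. Batch B holds 1 control clone, so differences there have no replicate check on the control side.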
